A study of Homo sapiens with 24 samples.

Results

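ATF4 and 9 of its target genes in the amino acid and stress response were followed over both ovarian cancer lines, both treatments and both times. The 10 genes, ATF4, DDIT3, DDIT4, TRIB3, ASNS, CHAC1, PSAT1, PHGDH, SLC7A11 and GDF15, were taken by name from 63299 genes in the count table, and all 10 were found and passed the filter on low counts that left 20240 genes for testing. The study asked how platinum-sensitive A2780 cells and their isogenic platinum-resistant derivative A2780cis respond to 5-FdU-ECyd, a prodrug that joins a fluorinated deoxyuridine and ethynylcytidine and that is metabolised to inhibitors of DNA and RNA synthesis. Both lines were grown in glutamine-supplemented RPMI1640 with fetal calf serum, and A2780cis cells were kept resistant by passages in cisplatin, so the resistant line is a single selected derivative with its own drug history. The 8 groups were untreated or 1 µM 5-FdU-ECyd for 6 h or 12 h in each line, with 3 libraries per group (24 in all). The study describes the triplicates as biological replicates. The p-values therefore rest on the spread between such samples within a group, pooled over the 8 groups and both lines.

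The integrated stress response is the pathway by which kinases that phosphorylate translation factor eIF2 slow general protein synthesis when amino acids run short, proteins misfold or viral RNA or heme loss is sensed. ATF4 is its central transcription factor, and it is controlled in large part at the level of translation through upstream open reading frames, so its transcript level and its activity are separate quantities. With its partners it binds composite C/EBP-ATF response elements and raises genes of amino acid synthesis, uptake and charging, and, under lasting stress, regulators of cell death. Several of its targets also have other activators, p53 among them for DDIT4 and GDF15.

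The libraries held between 11077368 and 21901406 counts each. Values below are CPM, the counts of a gene relative to the TMM-scaled total of its library, a relative level in which fewer cells and less RNA per cell cannot be told apart, and a gene is called where its adjusted p in the edgeR quasi-likelihood test was at most 0.05. With library sizes unscaled by TMM, the median over all genes at 12 h of log2 FC was 0.24 for A2780 and 0.15 for A2780cis, beside 0.02 and 0.04 with TMM. Upward calls then made up 70.7% rather than 52.3% of all calls in A2780, and 58.8% rather than 51.7% in A2780cis. The same medians at 6 h were 0.04 and 0.00 with TMM and 0.10 in each line without it, with upward shares of 54.5% and 47.0% becoming 63.7% and 61.4%. The changes of the 10 genes are therefore relative to the bulk of genes. The marker values that follow are instead CPM of the library total without TMM. Of 9 epithelial ovarian markers, KRT7, CDH1, PAX8, WT1 and MUC16 had at most 3 counts in every library. The whole list summed to between 2.10 and 7.61 CPM in A2780 and between 22.6 and 38.0 CPM in A2780cis. In untreated cells at 6 h KRT18 (20.8 against 1.06) and KRT8 (3.9 against 0.695) were higher in A2780cis than in A2780, while EPCAM was lower (0.287 against 0.645). Of 9 markers of other cell types, PTPRC, CD3E, PECAM1, VWF and ALB were at or under 3 counts, while COL3A1, a fibroblast collagen, took most of a summed level of 205 to 318 CPM in A2780 and 1385 to 2168 CPM in A2780cis. In untreated cells at 6 h COL3A1 (1752 against 206) and CD68 (5.9 against 2.86) were higher in A2780cis. COL1A1 (0.365 against 4.81) and DCN (0.949 against 10.3) were lower there.

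The members lie on 10 chromosomes (GRCh38, GENCODE 44). ATF4 (ENSG00000128272.14) spans chr22:39519695-39522683, DDIT3 (ENSG00000175197.11) chr12:57516588-57521737, DDIT4 (ENSG00000168209.4) chr10:72273919-72276036, TRIB3 (ENSG00000101255.10) chr20:362835-397559 and ASNS (ENSG00000070669.16) chr7:97851677-97872542. CHAC1 (ENSG00000128965.11) spans chr15:40952962-40956512, PSAT1 (ENSG00000135069.13) chr9:78297125-78330093, PHGDH (ENSG00000092621.11) chr1:119648411-119744218, SLC7A11 (ENSG00000151012.13) chr4:138164097-138242349 and GDF15 (ENSG00000130513.6) chr19:18374731-18389176. DDIT3 shares 413 exonic bases with MARS1 and MBD6, and SLC7A11 shares 865 with SLC7A11-AS1, each on the opposite strand. The paper names a stranded library kit, but whether strand was used in counting was not given in the sources used here. Reads in those stretches could therefore belong to either gene. Counts were not whole in 1 of 24 libraries for DDIT3 and in 1 for SLC7A11. The 4 annotated pseudogene copies of ATF4 held 2.58% as many counts as ATF4 itself, and those of ASNS and PSAT1 held 0.0507% and 0.113%.

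The composite element that ATF4 binds with C/EBP partners was searched in promoter windows from 250 bases before to 50 after each start (RefSeq, GRCh38.p14, both strands), as TGATGNAA. It was found in the windows of ASNS and CHAC1 and in 3.62% of all 35116 windows. Windows were held for 9 of the 10 genes, all but SLC7A11, and there were 14 of them. The 2 sites are shown because both genes carry a match to the same motif while their transcripts moved in opposite directions in A2780 at 12 h. The motif is in capitals, read 5′ to 3′ on the strand of the gene. It starts 68 bases before the ASNS start at chr7:97872458-97872487 (minus strand), and 209 bases before the CHAC1 start at chr15:40953251-40953280 (plus strand), where it reads on the opposite strand. Both stretches lie within the annotated gene and overlap exons of 3 ASNS transcripts and 1 CHAC1 transcript that begin before that start.
ASNS: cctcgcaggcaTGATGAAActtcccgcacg
CHAC1: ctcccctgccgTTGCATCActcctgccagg
The cyclic AMP response element TGACGTCA was in no member window (1.85% of all windows), the E-box CACGTG was in that of ATF4 (7.26%), and the p53 consensus half-site was in none (6.63%). These are matches of letters only, and their overlap with each other was not examined.

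**Figure D1:**
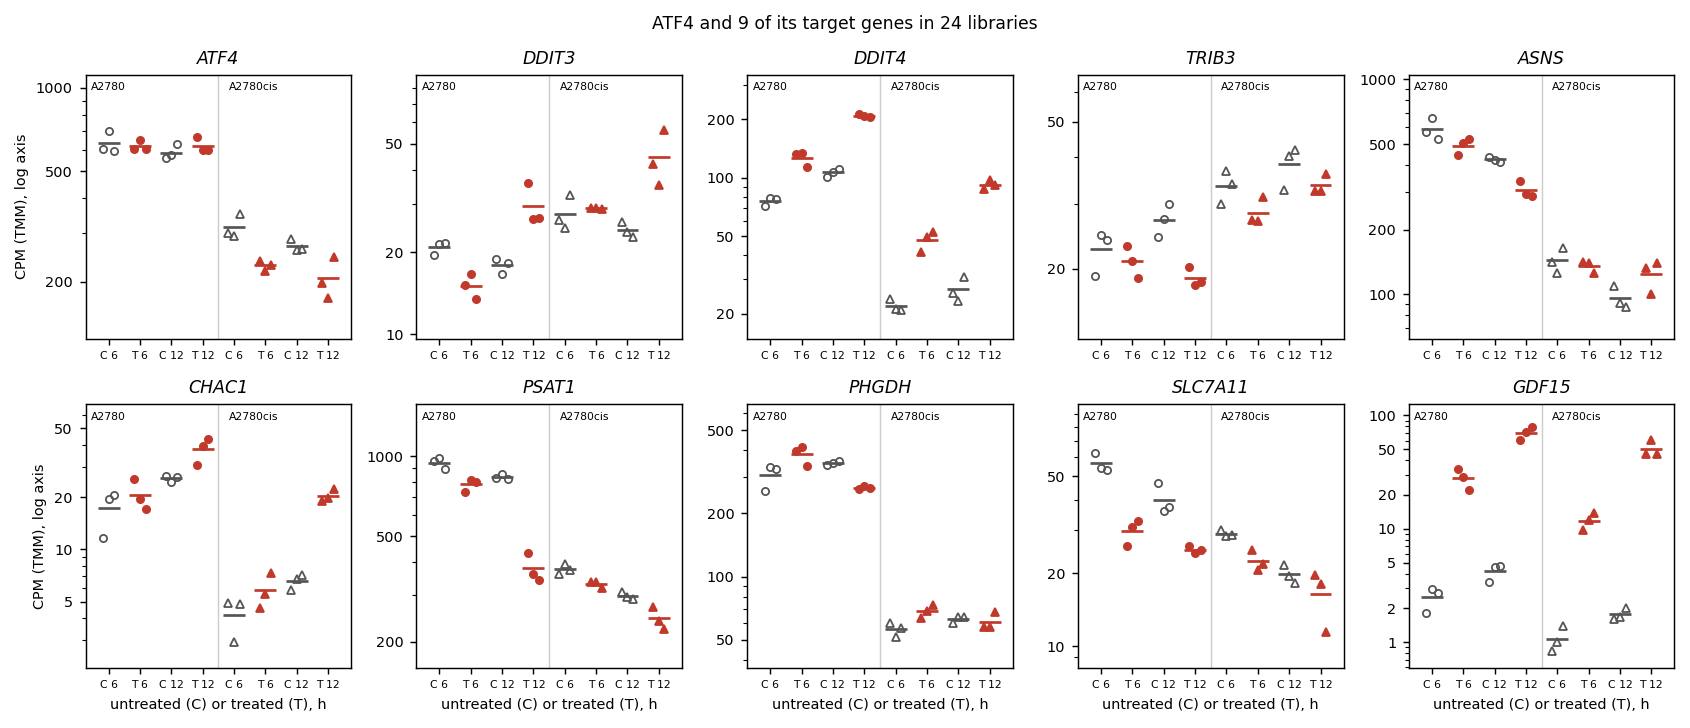
Level of each of the 10 genes in CPM after TMM scaling (log axis) in all 24 libraries, with A2780 to the left (circles) and A2780cis to the right (triangles) of the vertical line. Open grey symbols are untreated and filled red symbols treated libraries at 6 h and 12 h, and bars are means of 3 libraries. All 3 treated GDF15 values lie above all 3 untreated ones in each of the 4 comparisons, while ATF4 itself stays between 557 and 699 CPM in the 12 A2780 libraries.

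In untreated cells, 8 of the 10 transcripts were lower in A2780cis than in A2780 at both times, and DDIT3 and TRIB3 were higher. The largest gap was that of PHGDH, the enzyme that commits glycolytic carbon to serine synthesis. It had 256, 332 and 326 CPM in A2780 at 6 h and 60.2, 51.3 and 57.0 CPM in A2780cis without treatment, 5.41-fold lower (log2 FC = -2.44 ± 0.11 (SE), edgeR adjusted p = 1.42e-16). The groups were far from overlapping. ASNS, which makes asparagine, had 566, 658 and 531 CPM against 141, 126 and 165 CPM, 4.06-fold lower in A2780cis (log2 FC = -2.02 ± 0.12 (SE), edgeR adjusted p = 2.11e-13). PSAT1, the next enzyme of serine synthesis after PHGDH, was 2.52-fold lower (log2 FC = -1.33 ± 0.09 (SE), edgeR adjusted p = 2.63e-12), at 375 ± 17.2 against 943 ± 47.8 CPM (SD, n = 3).

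ATF4 itself had 604, 699 and 593 CPM in untreated A2780 cells at 6 h and 301, 294 and 352 CPM in A2780cis cells, so that no A2780cis library came near the lowest A2780 library. It was 2.17-fold lower at 12 h (log2 FC = -1.12 ± 0.11 (SE), edgeR adjusted p = 1.29e-09), after a log2 FC of -1.0 at 6 h. CHAC1, a glutathione-degrading enzyme, was lower by 4.04-fold at 6 h and 3.90-fold at 12 h, and DDIT4, an inhibitor of mTORC1 signalling, by 3.46-fold and 4.0-fold. GDF15, a secreted stress cytokine, was lower by 2.23-fold and 2.43-fold, and SLC7A11, the cystine importer of the xCT exchanger, by 1.94-fold and 2.02-fold. The line difference of these 7 genes and PHGDH was called at both times, with edgeR adjusted p from 5.85e-17 (PHGDH, 12 h) to 0.00462 (GDF15, 6 h).

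The other two members were higher in A2780cis. TRIB3, a pseudokinase that restrains ATF4 and AKT, had 19.1, 24.7 and 23.9 CPM in A2780 and 29.9, 36.8 and 33.9 CPM in A2780cis at 6 h (log2 FC = 0.57 ± 0.12 (SE), edgeR adjusted p = 0.000402). DDIT3, which encodes the death-associated factor CHOP, had 19.6, 21.4 and 21.6 CPM against 26.2, 24.5 and 32.6 CPM at 6 h (log2 FC = 0.42 ± 0.15 (SE), edgeR adjusted p = 0.0219) and 18.9, 16.7 and 18.3 CPM against 25.9, 23.6 and 22.7 CPM at 12 h (log2 FC = 0.42 ± 0.14 (SE), edgeR adjusted p = 0.0151). Neither gene's groups overlapped. The DDIT3 call was lost at 6 h with library size alone (log2 FC = 0.31, edgeR adjusted p = 0.0556), in the fit of the compared libraries alone (0.32, adjusted p = 0.0666) and without untreated A2780 replicate 1 or untreated A2780cis replicate 3 (log2 FC between 0.28 and 0.37, edgeR adjusted p between 0.079 and 0.163), and at 12 h without untreated A2780 replicate 2 or untreated A2780cis replicate 1 (log2 FC 0.37, edgeR adjusted p between 0.0589 and 0.0652). All 10 members were called at both times, where the calls over all tested genes were 47.9% (25.0% up and 22.9% down) at 6 h and 52.9% (25.4% up and 27.5% down) at 12 h, and the groups of all 10 did not overlap, against 52.0% and 62.3% of tested genes. The median log2 FC of the members was -1.25 at 6 h and -1.38 at 12 h, beside 0.01 and -0.01 over all tested genes. The markers of other cell types given above also differed between the lines, COL3A1 and CD68 higher and COL1A1 and DCN lower in A2780cis. Their part in these differences was not tested.

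**Figure D2:**
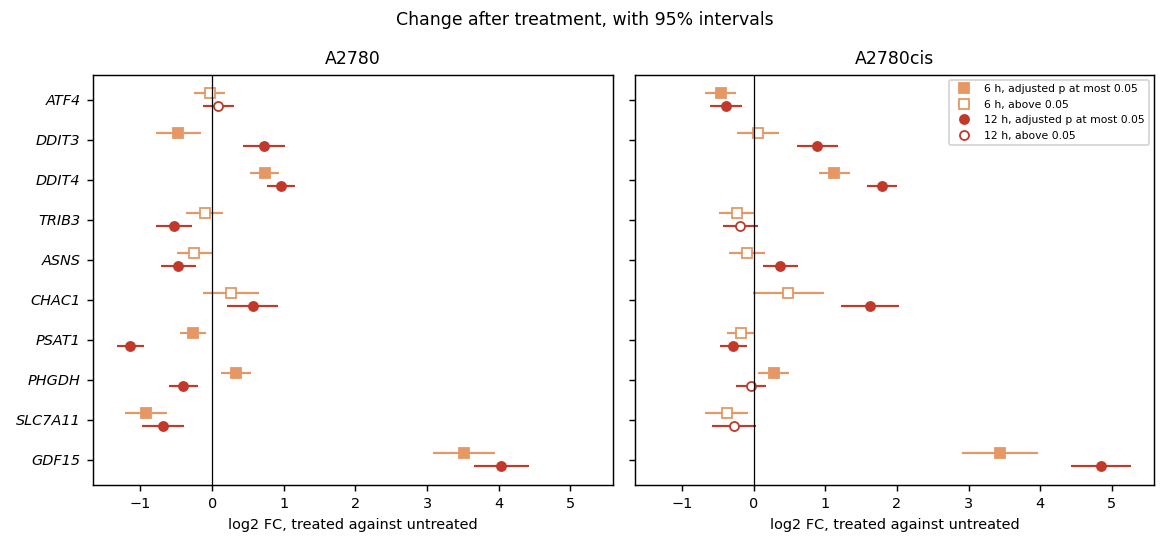
Change of each gene after treatment as log2 FC of treated over untreated libraries, in A2780 (left) and A2780cis (right), at 6 h (squares) and 12 h (circles). Lines are 95% intervals from the edgeR standard error, and filled symbols passed an adjusted p of 0.05. GDF15 lies between 3.44 and 4.85 in all 4 comparisons, and the other 9 genes lie between -1.14 and 1.79.

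After 12 h of treatment the stress effectors GDF15, DDIT4, CHAC1 and DDIT3 rose in both lines. GDF15 had 3.37, 4.63 and 4.73 CPM in untreated and 61.0, 70.7 and 79.1 CPM in treated A2780 libraries, a 16.4-fold rise (log2 FC = 4.04 ± 0.18 (SE), edgeR adjusted p = 2.85e-15). In A2780cis it went from 1.59, 1.68 and 2.00 CPM to 45.8, 60.9 and 45.2 CPM, 28.8-fold (log2 FC = 4.85 ± 0.20 (SE), edgeR adjusted p = 6.92e-16). Every treated library was far above every untreated one. The rise was present at 6 h, when treated A2780 libraries had 33.3, 28.6 and 21.9 CPM (11.4-fold, log2 FC = 3.51 ± 0.21 (SE), edgeR adjusted p = 7.47e-12) and treated A2780cis libraries 9.81, 11.9 and 13.7 CPM (10.8-fold, log2 FC = 3.44 ± 0.26 (SE), edgeR adjusted p = 2.89e-10). In the order of its 8 group means only 1 of 7 neighbouring pairs overlapped, and the highest group mean was 65.3 times the lowest. The lowest GDF15 count in any library was 9.

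DDIT4 rose at both times in both lines. It had 101, 107 and 112 CPM in untreated and 212, 207 and 205 CPM in treated A2780 libraries at 12 h (log2 FC = 0.96 ± 0.10 (SE), edgeR adjusted p = 6.15e-09), and 25.7, 23.4 and 31.0 CPM and 87.7, 97.1 and 91.8 CPM in A2780cis (log2 FC = 1.79 ± 0.10 (SE), edgeR adjusted p = 1.95e-13). The groups did not overlap in any of the 4 comparisons, and the replicates lay close together. At 6 h its log2 FC was 0.74 in A2780 (edgeR adjusted p = 3.97e-06) and 1.13 in A2780cis (adjusted p = 1.87e-08). Treated A2780cis cells at 12 h, at 92.2 ± 4.73 CPM (SD, n = 3), stayed under the untreated A2780 cells of that time, at 107 ± 5.04 CPM.

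CHAC1 had 26.5, 24.5 and 26.2 CPM in untreated and 30.9, 39.7 and 43.3 CPM in treated A2780 libraries at 12 h (log2 FC = 0.57 ± 0.17 (SE), edgeR adjusted p = 0.00781). That call was lost without treated replicate 3 (log2 FC 0.45, edgeR adjusted p = 0.053). In A2780cis it went from 5.88, 6.79 and 7.13 CPM to 18.9, 19.8 and 22.3 CPM, 3.08-fold (log2 FC = 1.62 ± 0.19 (SE), edgeR adjusted p = 8.53e-08), with the groups well apart. At 6 h the groups overlapped in both lines, at log2 FC = 0.26 (95% interval -0.13 to 0.65) in A2780 and 0.48 (-0.01 to 0.98) in A2780cis, which passed with no filter on low counts (0.51, edgeR adjusted p = 0.0413).

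DDIT3 differed in direction between the times in A2780. At 6 h it had 19.6, 21.4 and 21.6 CPM in untreated and 15.1, 16.6 and 13.5 CPM in treated libraries, a fall (log2 FC = -0.47 ± 0.15 (SE), edgeR adjusted p = 0.0219) that was lost without untreated replicate 2 or 3 or treated replicate 1 or 3 (log2 FC between -0.48 and -0.40, edgeR adjusted p between 0.0521 and 0.0889). At 12 h it had 18.9, 16.7 and 18.3 CPM in untreated and 35.8, 26.5 and 26.7 CPM in treated libraries, a rise (log2 FC = 0.72 ± 0.14 (SE), edgeR adjusted p = 0.000135). In A2780cis it had 29.2, 29.0 and 28.7 CPM in treated libraries at 6 h, inside the untreated range (log2 FC = 0.06 ± 0.14 (SE), edgeR adjusted p = 0.801), and 42.1, 35.4 and 56.2 CPM at 12 h against 25.9, 23.6 and 22.7 CPM untreated (log2 FC = 0.89 ± 0.14 (SE), edgeR adjusted p = 5.65e-06). Treated A2780cis replicate 3 at 12 h held the highest of these values. Of its opposite-strand neighbours at 12 h, MARS1 was lower in treated A2780 cells, at 221 ± 13.6 against 412 ± 8.70 CPM (log2 FC = -0.90, edgeR adjusted p = 2.10e-09) and MBD6 was higher, at 44.6 ± 8.48 against 31.8 ± 4.94 CPM (log2 FC = 0.49, edgeR adjusted p = 0.0178). Their part in the DDIT3 values was not tested.

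TRIB3, the other stress regulator among the members, was not called up in any of the 4 comparisons. In A2780 it fell at 12 h, from 24.3, 27.2 and 29.9 CPM to 20.2, 18.1 and 18.4 CPM, without overlap (log2 FC = -0.53 ± 0.12 (SE), edgeR adjusted p = 0.000688). In A2780cis at 12 h the treated libraries had 32.5, 32.5 and 36.0 CPM beside 32.6, 40.3 and 41.9 CPM untreated and overlapped them (log2 FC = -0.18 ± 0.12 (SE), edgeR adjusted p = 0.182), and without untreated replicate 1 the fall passed (log2 FC = -0.30, edgeR adjusted p = 0.0444). At 6 h its log2 FC was -0.11 (95% interval -0.37 to 0.16) in A2780 and -0.24 (-0.49 to 0.01) in A2780cis, neither of them called. All 7 neighbouring pairs in the order of its 8 group means overlapped, and the highest mean was 2.03 times the lowest.

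The ATF4 transcript was not called in A2780 and fell in A2780cis. In A2780 it had 557, 572 and 626 CPM untreated and 667, 598 and 596 CPM treated at 12 h, with overlapping groups (log2 FC = 0.08 ± 0.11 (SE), edgeR adjusted p = 0.521), and at 6 h a log2 FC of -0.03 (95% interval -0.25 to 0.18). Scaled by library size alone, the 12 h value in A2780 became 0.30 (edgeR adjusted p = 0.00329), beside a median of 0.24 over all genes. In A2780cis it had 301, 294 and 352 CPM untreated and 238, 219.7 and 229.8 CPM treated at 6 h (log2 FC = -0.46 ± 0.11 (SE), edgeR adjusted p = 0.00176), and 285, 261 and 264 CPM against 198, 175 and 246 CPM at 12 h (log2 FC = -0.39 ± 0.11 (SE), edgeR adjusted p = 0.00279). The groups did not overlap at either time, although treated replicate 3 at 12 h came close to the untreated libraries. By level, the 4 A2780 groups overlapped each other from 585 ± 36.4 to 632 ± 58.1 CPM (SD, n = 3) and all lay above the 4 A2780cis groups, of which the 2 treated ones overlapped each other and lay lowest.

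The 4 genes of serine and asparagine synthesis and of cystine import, PSAT1, PHGDH, ASNS and SLC7A11, all fell in A2780 at 12 h, PHGDH with the exception given below for library size alone. PSAT1 had 827, 859 and 819.8 CPM in untreated and 433, 361 and 342 CPM in treated A2780 libraries at 12 h, 2.20-fold lower (log2 FC = -1.14 ± 0.09 (SE), edgeR adjusted p = 1.23e-10). The groups were widely separated. The treated libraries overlapped the untreated A2780cis libraries of 6 h, at 359, 393 and 372 CPM, but all lay above those of 12 h. In A2780cis PSAT1 fell by less at 12 h, from 309, 296 and 289 CPM to 271, 239 and 223 CPM (log2 FC = -0.28 ± 0.09 (SE), edgeR adjusted p = 0.00921). At 6 h the fall in A2780, from 954, 984 and 890.4 CPM to 735, 815 and 799 CPM (log2 FC = -0.27 ± 0.09 (SE), edgeR adjusted p = 0.028), was lost without untreated replicate 1 or 2 or treated replicate 1 (log2 FC between -0.26 and -0.23, edgeR adjusted p between 0.0852 and 0.134) and with no filter on low counts (adjusted p = 0.0951). In A2780cis at 6 h it was not called (log2 FC = -0.18 ± 0.09 (SE), edgeR adjusted p = 0.136), with a 95% interval of -0.37 to 0.01.

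PHGDH, the enzyme before PSAT1 in that pathway, was higher at 6 h and lower at 12 h in treated A2780 cells. It had 256, 332 and 326 CPM untreated and 396, 417 and 337 CPM treated at 6 h (log2 FC = 0.33 ± 0.10 (SE), edgeR adjusted p = 0.0126), and the 2 groups did not overlap. At 12 h it had 342, 349.7 and 357 CPM untreated and 261, 269.7 and 263 CPM treated (log2 FC = -0.40 ± 0.10 (SE), edgeR adjusted p = 0.00123), with little spread in either group, but the fall was not called when libraries were scaled by their size alone (log2 FC = -0.18, adjusted p = 0.117). In A2780cis it rose at 6 h, from 60.2, 51.3 and 57.0 CPM to 63.2, 68.2 and 73.0 CPM (log2 FC = 0.28 ± 0.10 (SE), edgeR adjusted p = 0.0424), and at 12 h the treated libraries had 57.5, 57.4 and 68.0 CPM beside 60.3, 64.1 and 63.9 CPM (log2 FC = -0.04 ± 0.10 (SE), edgeR adjusted p = 0.754). The 6 h rise was lost in A2780 without untreated replicate 1 or treated replicate 1 or 2 (log2 FC between 0.22 and 0.31, edgeR adjusted p between 0.0534 and 0.131) and in A2780cis without untreated replicate 2 or 3 or treated replicate 2 or 3 (log2 FC between 0.22 and 0.29, edgeR adjusted p between 0.0768 and 0.189) or with no filter on low counts (adjusted p = 0.0534).

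ASNS went in opposite directions in the 2 lines at 12 h. In A2780 it had 437, 424 and 413 CPM untreated and 337, 294 and 287 CPM treated, a fall without overlap (log2 FC = -0.47 ± 0.12 (SE), edgeR adjusted p = 0.00163). In A2780cis it had 109, 91.4 and 87.2 CPM untreated and 133, 101 and 139.8 CPM treated (log2 FC = 0.37 ± 0.12 (SE), edgeR adjusted p = 0.00981), and treated replicate 2 lay inside the untreated range. The rise in A2780cis was lost without untreated replicate 3 or treated replicate 1 or 3 (log2 FC between 0.25 and 0.30, edgeR adjusted p between 0.0624 and 0.101). At 6 h it was called in neither line, at log2 FC = -0.25 (-0.50 to -0.00) in A2780 and -0.09 (-0.34 to 0.16) in A2780cis. ASNS and CHAC1, whose promoter windows are printed above, thus had the same sign at 12 h in A2780cis and opposite signs in A2780.

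SLC7A11 fell in A2780 at both times. It had 62.1, 54 and 53.1 CPM untreated and 25.9, 31.0 and 32.7 CPM treated at 6 h (log2 FC = -0.92 ± 0.14 (SE), edgeR adjusted p = 2.96e-05), and 47.0, 35.9 and 37.4 CPM against 25.8, 24.1 and 24.8 CPM at 12 h (log2 FC = -0.69 ± 0.14 (SE), edgeR adjusted p = 0.000204). Neither pair of groups overlapped. In A2780cis at 6 h the treated libraries had 25.0, 20.7 and 21.8 CPM beside 30.1, 28.4 and 28.7 CPM untreated, without overlap but above the threshold (log2 FC = -0.37 ± 0.15 (SE), edgeR adjusted p = 0.0543). DESeq2 gave an adjusted p of 0.0383 there, the DESeq2 size factors in edgeR 0.0453, the fit of the compared libraries alone 0.0264 and the replicate block 0.0355, and without treated replicate 1 edgeR gave 0.0398 (log2 FC = -0.45). At 12 h treated A2780cis libraries had 19.6, 18.1 and 11.4 CPM against 21.7, 19.5 and 18.1 CPM (log2 FC = -0.27 ± 0.15 (SE), edgeR adjusted p = 0.112), with replicate 3 lowest. This fall passed without treated replicate 1 (log2 FC = -0.45, edgeR adjusted p = 0.0178) and with no filter on low counts (-0.32, adjusted p = 0.0478). SLC7A11-AS1, which shares exonic bases with it on the other strand, was also lower in treated A2780 cells at 6 h, at 1.82 ± 0.399 against 4.78 ± 1.33 CPM (log2 FC = -1.4, edgeR adjusted p = 0.000221), and its part in the SLC7A11 counts was not tested.

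In number, 3 members rose (DDIT4, PHGDH and GDF15) and 3 fell (DDIT3, PSAT1 and SLC7A11) in A2780 at 6 h, where 29.4% (16% up and 13.4% down) of all tested genes were called, and 4 rose and 5 fell at 12 h, where 54.8% (28.6% up and 26.1% down) were. In A2780cis 3 rose (DDIT4, PHGDH and GDF15) and ATF4 fell at 6 h, against a background of 30.7% (14.4% up and 16.3% down), and 5 rose and 2 fell at 12 h, against 59.9% (31.0% up and 28.9% down). The groups did not overlap for 7 members in A2780 at 6 h and 9 at 12 h, beside 41.6% and 64.0% of all genes, and for 6 members at each time in A2780cis, beside 43.2% and 59.6%. With 10 members, the counts of 4 at 6 h and 7 at 12 h in A2780cis are close to these backgrounds. The median log2 FC of the members was -0.07 and -0.16 in A2780 and -0.01 and 0.17 in A2780cis at 6 h and 12 h, beside medians between 0.00 and 0.04 over all genes. Without treated A2780 replicate 1 at 6 h, the count there dropped from 6 to 3.

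**Figure D3:**
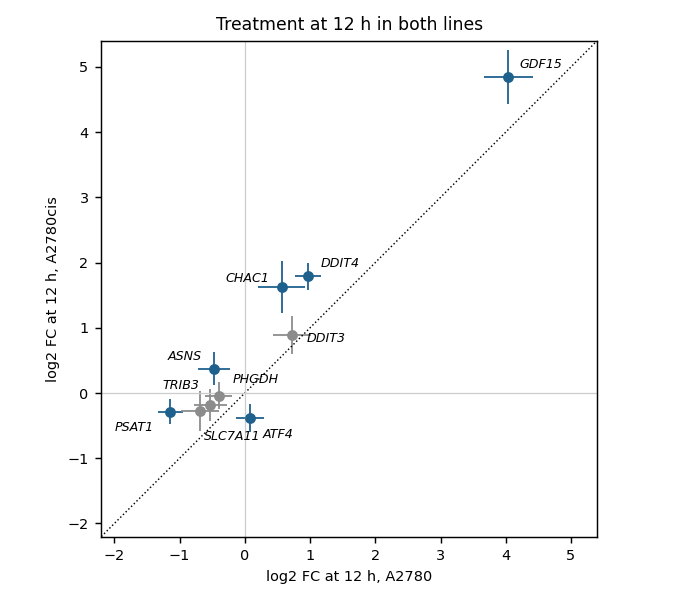
Change of each gene at 12 h as log2 FC of treated over untreated libraries in A2780 (horizontal axis) and A2780cis (vertical axis), with 95% intervals. The dotted line marks equal change, and blue points passed the edgeR test of the difference between the lines at an adjusted p of 0.05. DDIT4, CHAC1, ASNS, PSAT1 and GDF15 lie above the line and ATF4 below it.

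The difference between the lines was itself tested as the log2 FC of A2780cis minus that of A2780. At 12 h 6 members were called, against 23.7% (9.7% up and 14.0% down) of all tested genes. The response of A2780cis was higher for CHAC1 (difference 1.06, 95% interval 0.52 to 1.59, edgeR adjusted p = 0.00453), PSAT1 (0.86, 0.59 to 1.12, adjusted p = 4.05e-05), ASNS (0.85, 0.50 to 1.2, adjusted p = 0.000887) and DDIT4 (0.83, 0.54 to 1.11, adjusted p = 0.000142). For PSAT1 this is a smaller fall and for CHAC1 and DDIT4 a larger rise. It was also higher for GDF15 (0.81, 0.24 to 1.38, edgeR adjusted p = 0.0352), a call lost without untreated A2780 replicate 2 or 3, treated A2780 replicate 1 or 2, untreated A2780cis replicate 1 or 2 or treated A2780cis replicate 2 (log2 FC between 0.65 and 0.82, edgeR adjusted p between 0.0519 and 0.0959) and with library size alone (edgeR adjusted p = 0.0997). ATF4 had the only lower response (-0.47, -0.78 to -0.16, edgeR adjusted p = 0.0235), lost without untreated A2780 replicate 1 or 2, treated A2780 replicate 1, untreated A2780cis replicate 1 or treated A2780cis replicate 2 (log2 FC between -0.46 and -0.36, edgeR adjusted p between 0.0517 and 0.0672) and in the fit of the 12 compared libraries alone (edgeR adjusted p = 0.0905). The differences of DDIT3 (0.17, -0.24 to 0.58), TRIB3 (0.34, -0.01 to 0.69), PHGDH (0.36, 0.07 to 0.65) and SLC7A11 (0.41, -0.01 to 0.83) did not pass. That of PHGDH passed in the fit of the compared libraries alone (0.42, edgeR adjusted p = 0.0298) and without treated A2780cis replicate 2 (0.40, adjusted p = 0.046), and that of SLC7A11 without treated A2780cis replicate 3 (0.61, edgeR adjusted p = 0.0149). The higher log2 changes of CHAC1, DDIT4 and GDF15 in A2780cis started from untreated levels 3.90, 4.0 and 2.43 times lower, and their treated means at 12 h stayed below those of A2780, for CHAC1 at 20.3 ± 1.72 against 38.0 ± 6.37 CPM and for GDF15 at 50.6 ± 8.91 against 70.2 ± 9.09 CPM (SD, n = 3).

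At 6 h the line difference was called by edgeR for 0 of the 10 members and by DESeq2 for 0, against 3.07% of all tested genes, while 4 members had an unadjusted p of at most 0.05. The values nearest the threshold were ATF4 (-0.43, 95% interval -0.74 to -0.12), DDIT4 (0.39, 0.09 to 0.69), SLC7A11 (0.54, 0.12 to 0.96) and DDIT3 (0.53, 0.10 to 0.96). For GDF15 the interval ran from -0.91 to 0.77, which covers differences of either sign.

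Whether the response changed from 6 h to 12 h was tested as the log2 FC at 12 h minus that at 6 h. In A2780 it was called for 3 members, against 23.7% (10.7% up and 13% down) of all genes. It was upward for DDIT3 (1.19, 95% interval 0.76 to 1.62, edgeR adjusted p = 0.00025) and downward for PSAT1 (-0.87, -1.14 to -0.61, adjusted p = 3.63e-05) and PHGDH (-0.74, -1.02 to -0.45, adjusted p = 0.000525). In A2780cis it was called upward for 4, against 24% (10.3% up and 13.6% down), namely GDF15 (1.41, 0.61 to 2.20, edgeR adjusted p = 0.0097), CHAC1 (1.14, 0.50 to 1.78, adjusted p = 0.0093), DDIT3 (0.83, 0.42 to 1.24, adjusted p = 0.00398) and DDIT4 (0.66, 0.36 to 0.97, adjusted p = 0.00205). The GDF15 call was lost without untreated 6 h replicate 3 (log2 FC 1.15, edgeR adjusted p = 0.0974). DDIT3 was thus the member called in both lines. The ASNS value in A2780cis (0.46, edgeR adjusted p = 0.0515) passed with DESeq2 (adjusted p = 0.0327), its size factors (adjusted p = 0.0422) or library size alone (adjusted p = 0.0133). It also passed in edgeR without untreated 6 h replicate 2, untreated 12 h replicate 1 or treated 12 h replicate 2 (adjusted p between 0.00808 and 0.0261), and the PHGDH value in A2780cis (-0.32, edgeR adjusted p = 0.113) passed without treated 12 h replicate 3 (-0.48, adjusted p = 0.0236).

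The untreated cells also differed between the times, which is part of the level each treated group is set against. In A2780, 3 members were higher at 12 h than at 6 h (DDIT4, CHAC1 and GDF15) and 2 lower (ASNS and SLC7A11), where 26.9% (16.6% up and 10.3% down) of all genes were called. In A2780cis DDIT4 and CHAC1 were higher and ASNS, PSAT1 and SLC7A11 lower, where 39.9% (18% up and 21.9% down) were called. Untreated ASNS was 424 ± 12.4 CPM at 12 h after 585 ± 65.7 CPM at 6 h in the A2780 line (SD, n = 3; log2 FC = -0.46 ± 0.12 (SE), edgeR adjusted p = 0.00726). Its A2780cis level was 96.0 ± 11.6 CPM after 144 ± 19.7 CPM (log2 FC = -0.59 ± 0.12 (SE), edgeR adjusted p = 0.000665). DDIT4 was at 107 ± 5.04 CPM after 76.0 ± 4.08 CPM in A2780 cells (log2 FC = 0.49 ± 0.10 (SE), edgeR adjusted p = 0.00171), while its untreated groups overlapped in A2780cis. Several of these calls rested on single libraries, and the count was 2 without untreated A2780 6 h replicate 1 or 12 h replicate 3 and 3 without 12 h replicate 2. In A2780cis it was 3 without untreated 6 h replicate 2 or 12 h replicate 3. The calls lost in A2780 were those of CHAC1, SLC7A11 and GDF15, with adjusted p of up to 0.193, 0.0805 and 0.139, and in A2780cis those of DDIT4 and CHAC1, with up to 0.297 and 0.183. In A2780cis the PSAT1 call was lost with library size alone (log2 FC = -0.16 in place of -0.33, edgeR adjusted p = 0.106), with no filter on low counts (adjusted p = 0.0662) and in the compared libraries alone (adjusted p = 0.0589), and the SLC7A11 call with library size alone (edgeR adjusted p = 0.0532). Further members passed under single settings: by edgeR with library size alone PHGDH in both lines (0.27, adjusted p = 0.0399, and 0.33, adjusted p = 0.015) and TRIB3 in A2780cis (0.37, adjusted p = 0.029), by DESeq2 PSAT1 in A2780 (-0.21, adjusted p = 0.0467), and GDF15 in A2780cis with no filter on low counts (0.74, edgeR adjusted p = 0.0474) or the compared libraries alone (0.76, adjusted p = 0.0403).

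Around the 10 members, 10 lists of the wider pathway held 99 genes, 97 of them tested. At 12 h 17 of these rose and 53 fell in A2780, with a median log2 FC of -0.36, and 11 rose and 46 fell in A2780cis, with a median of -0.20. Over all tested genes the shares were 28.6% up and 26.1% down in A2780 and 31.0% up and 28.9% down in A2780cis, with medians of 0.02 and 0.04. At 6 h 18 rose and 25 fell in A2780 and 10 rose and 30 fell in A2780cis, where the shares over all tested genes were 16% up and 13.4% down and 14.4% up and 16.3% down. With library size alone the counts at 12 h were 23 up and 41 down in A2780 and 21 up and 44 down in A2780cis. Over all genes 70.7% of calls were upward under that setting in A2780 and 58.8% in A2780cis. These shares also stand beside the counts with library size alone in the lists below.

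**Figure D4:**
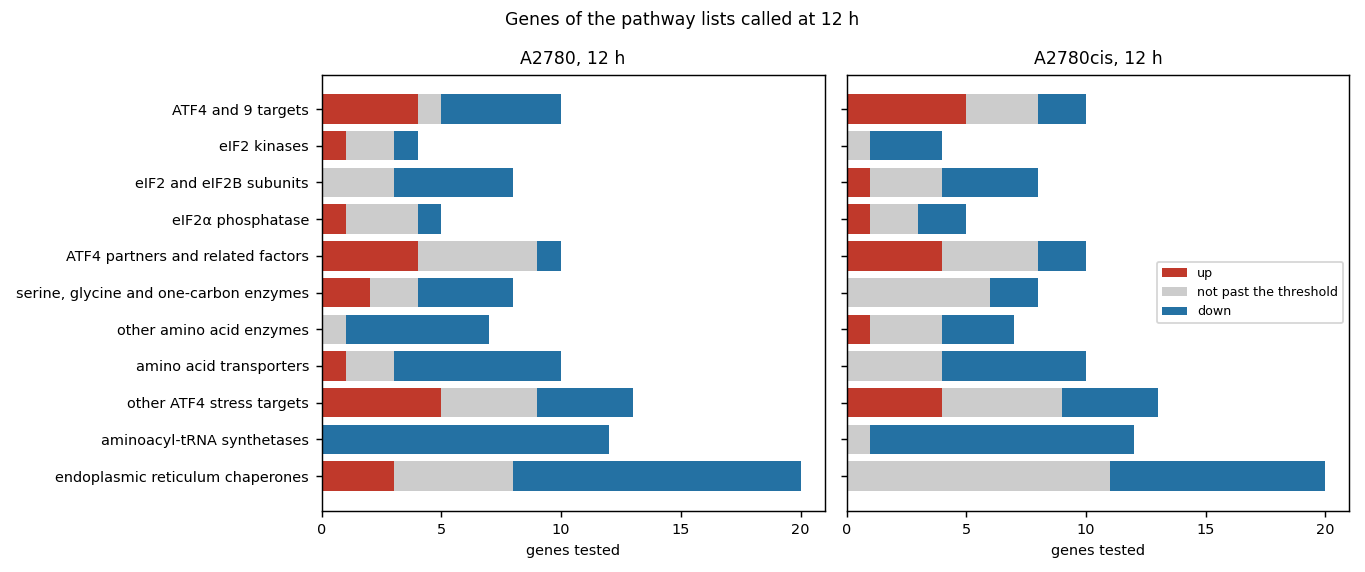
Number of tested genes of the 10 members and of each further pathway list that rose (red), fell (blue) or did not pass the edgeR test (grey) after 12 h of treatment, in A2780 (left) and A2780cis (right). All 12 synthetases fell in A2780 and 11 of 12 in A2780cis, and 4 of 10 ATF4 partners rose in each line. Of all tested genes 28.6% rose and 26.1% fell in A2780, and 31.0% rose and 28.9% fell in A2780cis.

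The aminoacyl-tRNA synthetases of the response, which load amino acids onto tRNAs, fell at 12 h, 12 of 12 in A2780 and 11 of 12 in A2780cis (median log2 FC -0.83 and -0.46, and -0.61 and -0.36 with library size alone, where 11 and 11 fell and 1 rose in A2780cis). For this and the next lists, 28.6% of all tested genes rose and 26.1% fell in A2780, and 31.0% rose and 28.9% fell in A2780cis. WARS1, which charges tryptophan, had a log2 FC of -1.17 (adjusted p = 1.68e-11) in A2780 and -0.35 (adjusted p = 0.0011) in A2780cis by edgeR, and AARS1, which charges alanine, -0.93 (adjusted p = 4.78e-10) and -0.78 (adjusted p = 7.30e-09). Of 10 amino acid transporters 7 fell and 1 rose in A2780 and 6 fell in A2780cis, SLC7A5, a large neutral amino acid carrier, by edgeR with -1.38 (adjusted p = 2.77e-07) and -1.45 (adjusted p = 1.16e-07). Of 8 serine, glycine and one-carbon enzymes 4 fell and 2 rose in A2780 (2 and 2 with library size alone) and 2 fell in A2780cis, MTHFD1L, a mitochondrial folate enzyme, by edgeR with -1.18 (adjusted p = 1.95e-10) and -1.33 (adjusted p = 2.06e-11). The 2 falls of 8 in A2780cis are near the share of all tested genes. Of 7 other amino acid enzymes 6 fell in A2780 (3 with library size alone), and in A2780cis 3 fell and 1 rose. PCK2, the mitochondrial phosphoenolpyruvate carboxykinase, was the riser there, by edgeR with 0.67 (adjusted p = 2.85e-05) beside -0.42 (adjusted p = 0.0038) in A2780 (difference 1.09, adjusted p = 5.06e-05).

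Of 20 endoplasmic reticulum chaperones of the ATF6 and XBP1 arms, 12 fell and 3 rose in A2780 and 9 fell in A2780cis (8 and 4, and 8 and 4, with library size alone). Of all tested genes 26.1% fell and 28.6% rose in A2780, and 28.9% fell and 31.0% rose in A2780cis. HSPA5, the main chaperone of that compartment, had a log2 FC of -1.49 (adjusted p = 9.30e-13) in A2780 and -1.43 (adjusted p = 1.55e-12) in A2780cis by edgeR. Among 10 partners and relatives of ATF4, 4 rose in each line (5 and 6 with library size alone), with 1 fall in A2780 and 2 in A2780cis. The numbers called in either direction are near the 54.8% and 59.9% of all tested genes. ATF3, a stress-induced repressor of the same family, reached 56.4 ± 3.00 CPM after 10.4 ± 1.59 CPM untreated in A2780, and 12.0 ± 1.54 after 1.4 ± 0.381 CPM in A2780cis, a rise of 2.44 (adjusted p = 2.75e-13) and 3.10 (adjusted p = 4.35e-13) on the log2 scale (edgeR). NUPR1, a stress-induced chromatin protein, gave 1.81 (adjusted p = 3.99e-11) and 2.54 (adjusted p = 8.00e-11) by edgeR. Of 13 other stress targets 5 rose and 4 fell in A2780 and 4 rose and 4 fell in A2780cis, near the shares of all tested genes given above. PMAIP1, which encodes the BH3-only protein NOXA and is also a p53 target, gave 2.90 (adjusted p = 5.62e-12) and 2.98 (adjusted p = 2.88e-14), and SESN2, another gene that p53 also activates, 0.61 (adjusted p = 1.59e-05) and 1.45 (adjusted p = 2.22e-11), all by edgeR.

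Upstream of ATF4, 1 of the 4 eIF2 kinases rose and 1 fell in A2780 at 12 h, and 3 fell in A2780cis. By edgeR, EIF2AK1 fell in A2780 (log2 FC -0.36, adjusted p = 0.000212). EIF2AK4 (-0.63, edgeR adjusted p = 3.01e-07) and EIF2AK2 (-0.61, adjusted p = 0.00022) fell in A2780cis. EIF2AK3, the remaining kinase, was the riser in A2780 and also fell in A2780cis. The 2 of 4 called in A2780 are near the 54.8% of all tested genes (28.6% up and 26.1% down). In A2780cis 59.9% were called (31.0% up and 28.9% down). Of 8 eIF2 and eIF2B subunits, 5 fell in A2780 (4, with 2 rises, under library size alone) and 4 fell and 1 rose in A2780cis. Of 5 eIF2α phosphatase subunits, 1 rose and 1 fell in A2780 and 1 rose and 2 fell in A2780cis, in number near or below those shares called. The riser in both lines was PPP1R15A (GADD34), the inducible subunit that ends the response, at log2 FC 1.57 (adjusted p = 7.73e-11) and 1.00 (adjusted p = 1.24e-07) by edgeR, and its level in A2780 was 26 ± 0.863 CPM treated against 8.71 ± 0.511 CPM untreated.

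Over the 24 libraries and 12517 genes of at least a mean log2 CPM of 2, the transcripts whose log2 CPM was most like that of ATF4 were RCAN1 (Pearson's r = 0.98, Spearman's rho = 0.917), ENSG00000243960 (0.98 and 0.889), WDR77 (0.98 and 0.882), C5 (0.98 and 0.898) and LRRTM4 (0.979 and 0.815). Those most like DDIT3 were OXSM (0.936 and 0.938), PNPLA8 (0.919 and 0.961), TLCD1 (0.916 and 0.929), RHNO1 (0.908 and 0.913) and MTFMT (0.895 and 0.877). The points share their libraries, fall into 2 lines and share depth, so these values describe the libraries. Ranked by Spearman's rho, 1 of the 5 genes for ATF4 and 3 of the 5 for DDIT3 stayed among the first 5.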

How the data were processed

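RNA-seq was analysed in 24 libraries of cultured A2780 and A2780cis cells. The authors trimmed reads with Trimmomatic, aligned them with STAR 2.5.2b to GRCh38.p7 and counted exons per gene with featureCounts. Reads at several sites and overlaps with several genes were allowed, and fractional counting was set. The deposited values are therefore estimated counts per gene, of which 9.5% to 12.8% per library were not whole. Per the labels reads were single and per the methods paired-end, and use of strand was not given in the sources used here. Counts were rounded to whole numbers. Gene names came from GENCODE 44 (56993 of 63299 identifiers matched).

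Genes were filtered with filterByExpr (minimum count 10, minimum total 15), TMM-scaled, and tested in edgeR 4.0.16 (R 4.3.3) with the quasi-likelihood F test, 1 coefficient per group over all 24 libraries, 16 residual degrees of freedom and Benjamini-Hochberg adjustment over 20240 genes, with a threshold of 0.05 and 95% intervals from the standard error. The common biological coefficient of variation was 11.2%. Tested on simulated data for the 12 h comparison in A2780 with 20240 genes, the procedure called 174 of 200 changed and 7 of 20040 unchanged genes. There only those 200 genes, none of them low in counts, differed, and all others had 1 mean in every group. The real comparison called 54.8% of genes, so the simulation does not measure the error rate or the scaling in these data. Alternatives were DESeq2 1.42.0, its size factors, library size alone, no filter, counts not rounded, the compared libraries alone, the replicate number as a block, and each library left out. Depth limits low genes such as GDF15 in untreated A2780cis cells most.

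The 10 genes were taken by name, and the members, gene lists and markers were chosen with earlier results of these data known. Named were all members in every comparison, up to 3 genes per further list with the smallest adjusted p at 12 h in either line, and the 5 genes most correlated with ATF4 and with DDIT3. MARS1, MBD6 and SLC7A11-AS1 were named because their exons overlap a member. EIF2AK3 was named as the remaining eIF2 kinase. Promoter windows came from RefSeq (GRCh38.p14).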

Additional observations from a re-analysis of the deposited data

Results flagged for a closer look

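Results appear here because the test of the difference between 2 responses was called by edgeR. Between the lines at 12 h, as the log2 FC in A2780cis minus that in A2780, these were CHAC1 (1.06), PSAT1 (0.86), ASNS (0.85), DDIT4 (0.83), GDF15 (0.81) and ATF4 (-0.47). ASNS was the member called in both lines with opposite signs. Between the times, as the log2 FC at 12 h minus that at 6 h, these were DDIT3 (1.19), PSAT1 (-0.87) and PHGDH (-0.74) in A2780, and GDF15 (1.41), CHAC1 (1.14), DDIT3 (0.83) and DDIT4 (0.66) in A2780cis. In A2780, DDIT3 and PHGDH were called in opposite directions at 6 h and 12 h. With 1 library left out, their 6 h calls were lost in 4 and 3 of 6 fits. The 12 h fall of PHGDH was not called with library size alone (edgeR adjusted p = 0.117). The ASNS rise in A2780cis was lost in 3 of 6 fits with 1 library left out. The line differences of GDF15 and ATF4 were lost in 7 and 5 of 12 such fits.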

How the results depend on the processing

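Over 840 values of a member in a comparison under 7 alternatives, 806 kept their sign and their side of the threshold, 17 passed it in addition, 11 no longer passed and 6 changed sign, none of these called. With library size alone the sign changed for ATF4 in A2780 at 6 h (0.036), ASNS in A2780cis at 6 h (0.011) and PHGDH in A2780cis at 12 h (0.064). With no filter on low counts it changed for the growth (12 h minus 6 h) of ATF4 (-0.0029) and TRIB3 (-0.026) in A2780cis, and with the compared libraries alone for the line difference of PHGDH at 6 h (0.0040). The cause was not tested. Of 960 values with 1 library left out, 884 kept both, 9 passed in addition, 50 no longer passed and 17 changed sign. The sign changed for ATF4 in A2780 at 6 h (range over the libraries left out -0.079 to 0.045), DDIT3 (-0.023 to 0.19) and ASNS (-0.18 to 0.021) in A2780cis at 6 h, the line difference at 6 h of CHAC1 (-0.0020 to 0.45), PHGDH (-0.14 to 0.057) and GDF15 (-0.23 to 0.18) and at 12 h of DDIT3 (-0.043 to 0.34), and the growth in A2780cis of ATF4 (-0.14 to 0.18), TRIB3 (-0.071 to 0.12) and SLC7A11 (-0.11 to 0.23), none of them called with all libraries.

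The number of members called was within 1.5 times under every alternative except with 1 library left out, where it lay between 3 and 5 in A2780 at 6 h, 2 and 5 for time in untreated A2780 and 3 and 5 for time in untreated A2780cis.

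Replicate numbers are shared across groups. The correlation of same-numbered deviations lay between -0.254 and 0.312 and exceeded 0.1 in 3 of 24 pairs, beside -0.326 to 0.275 for other pairs. With 3 libraries per group such correlations cannot exclude pairing, and the main fit held no block. With the replicate block, 5 members in place of 4 were called in A2780cis at 6 h, by SLC7A11, and the number was the same in the other 11 comparisons.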

Other observations

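Beyond the members, the 97 tested genes of the wider pathway also differed between the lines without treatment, by edgeR at an adjusted p of at most 0.05. At 6 h 33 were higher and 41 lower in A2780cis than in A2780, beside 25.0% and 22.9% of all tested genes. At 12 h 30 were higher and 49 lower, beside 25.4% and 27.5%. The lists differed in direction. Of the 20 chaperones 17 were higher and 1 lower at 6 h, and 15 and 1 at 12 h. Of the 12 synthetases 0 were higher and 9 lower at 6 h, and 0 and 12 at 12 h. Of the 13 other stress targets 2 were higher and 8 lower at 6 h, and 3 and 9 at 12 h. The response at 12 h differed between the lines for 30 of the 97 genes, 20 higher and 10 lower in A2780cis, beside 9.7% and 14.0% of all tested genes. With library size alone 16 were higher and 16 lower, where upward calls made up 27.0% rather than 41.0% of all calls. From 6 h to 12 h the response moved up for 9 and down for 39 genes in A2780 (16 and 29 with library size alone), beside 10.7% and 13% of all tested genes, and up for 7 and down for 21 in A2780cis (7 and 19), beside 10.3% and 13.6%. For this change library size alone made 69.7% rather than 45.1% of all calls upward in A2780, and 46.9% rather than 43.1% in A2780cis.

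FOSL1, an AP-1 factor on the list of ATF4 partners and relatives, rose at 12 h. Treated A2780 cells had 13.7 CPM against 1.13 untreated (log2 FC = 3.57, edgeR adjusted p = 6.24e-13), and treated A2780cis cells 19.2 against 2.31 CPM (3.05, edgeR adjusted p = 1.07e-12). CBS, which joins homocysteine to serine in the route to cysteine, fell in both lines (-1.26 and -1.49, edgeR adjusted p = 5.68e-08 and 3.03e-09), and so did SLC38A1, a glutamine carrier (-1.21 and -1.28, adjusted p = 6.06e-10 and 1.75e-10), and XPOT, the tRNA exporter (-1.21 and -1.08, adjusted p = 1.31e-10 and 6.79e-10). PPP1CC, a catalytic subunit of the eIF2α phosphatase, fell in both lines (-1.07 and -1.57, edgeR adjusted p = 7.36e-09 and 6.94e-12). EIF2B2, an eIF2B subunit, rose in A2780cis (0.50, edgeR adjusted p = 5.11e-05) and had a log2 FC of 0.02 in A2780, a difference of 0.47 (edgeR adjusted p = 0.0104). DNAJC3, an inhibitor of eIF2 kinases in the endoplasmic reticulum, fell in A2780cis (-1.03, edgeR adjusted p = 1.82e-08) and had -0.25 (adjusted p = 0.0543) in A2780, a difference of -0.78 (edgeR adjusted p = 0.000727).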
